A study of Mus musculus with 40 samples.

Results

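The expression of 10 genes of the endoplasmic reticulum (ER) folding machinery and the unfolded protein response (UPR) was followed in a fast muscle of the mouse hindlimb, the extensor digitorum longus (EDL). They were Hspa5, Hsp90b1, Calr, Hyou1, Pdia4, Dnajb9, Sdf2l1, Xbp1, Herpud1 and Creld2. They were picked by symbol from 22844 genes in the deposited tables, with earlier results of these data known. All 10 were among the 13543 genes that passed the filter on low counts. In TSCmKO mice, skeletal muscle fibers lack Tsc1, which holds back the kinase complex mTORC1, and control littermates (CON) had floxed Tsc1 alleles without Cre recombinase. Animals aged 3 or 9 months were injected intraperitoneally with vehicle or with the mTORC1 inhibitor rapamycin (RM) over 3 days. The labels give a dose of 4 mg per kg, while the study text gives a higher one, so that the dose is uncertain. This made 8 groups of 5 mice (3mCON, 3mCON+RM, 3mTSCmKO, 3mTSCmKO+RM and the same at 9 months), with 1 library of poly(A) RNA per muscle. All animals carried floxed Tsc1 on the strain labelled Tsc1tm1Djk/J. The promoter that drives Cre is not named in the sources used here, and the whole muscle also holds cells that keep Tsc1.

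The ER is where secreted and membrane proteins are folded. When unfolded proteins build up there, the sensors IRE1 (Ern1), PERK (Eif2ak3) and ATF6 start the UPR, which raises chaperones, degradation factors and, through ATF4 and CHOP (Ddit3), stress genes. In skeletal muscle, the sarcoplasmic reticulum, a specialized form of the ER, also stores calcium, which calreticulin (Calr) and GRP94 (Hsp90b1) can bind.

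In GRCm38 with GENCODE M21 gene models, the chaperone genes were Hspa5 (ENSMUSG00000026864, chr2:34771970-34777547, + strand), Hsp90b1 (chr10:86690209-86705509, − strand), Calr (chr8:84841850-84846934, − strand) and Hyou1 (chr9:44379490-44392369, + strand). Pdia4 (chr6:47796141-47813430) and the cochaperone genes Dnajb9 (chr12:44205559-44210326) and Sdf2l1 (chr16:17130138-17132383) lay on the − strand. Xbp1 (chr11:5520659-5525893), Herpud1 (chr8:94386438-94395377) and Creld2 (chr15:88819646-88826683) lay on the + strand.

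The promoters of UPR genes are known for short elements that ATF6 and XBP1 use. Such elements and, apart from them, the amino acid response element were looked up because the 10 genes differed in their responses. RefSeq promoter windows (GRCm38.p6, from 250 bases before the transcription start to 50 after it, 300 in all) were at hand for 9 of the 10 genes, all but Hyou1. The ER stress response element (ERSE) was searched as CCAAT followed, after a gap of 9 bases, by CCACG. ERSE-II was searched as ATTGG followed, after a gap of 1 base, by CCACG. The UPR element core was TGACGTG and the amino acid response element was TTGCATCA. All 4 were searched on both strands, and an ERSE and an ERSE-II can share the letters CCACG. An ERSE was present in 4 of the 9 windows, Hspa5, Hsp90b1, Calr and Creld2, and in 0.119% of 32851 promoters overall. In the UPR lists described further below, it was present in 3 of 15 other ER folding genes and 2 of 15 degradation genes with a window. It was present in 0 of 14 genes of ER entry and exit, 0 of 10 ATF4 and CHOP genes and 0 of 7 sensor and relay genes. Herpud1 had an ERSE-II (0.0365% of all promoters) and an amino acid response element (0.895%), and Hspa5 had the UPR element core (2.01%). These letters were not found in the windows of Pdia4, Dnajb9, Xbp1 and Sdf2l1. The Dnajb9 window lies wholly inside the GENCODE span of the gene, so sequence before the start of that model was not searched. A match is a description of the sequence only.

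The matched stretches follow on the strand of the gene, with the matched letters in capitals, except the amino acid response element of Herpud1 (−112 to −105), which is not printed, and with positions counted from the RefSeq start. Hsp90b1 is the gene with a pair of ERSE, on opposite strands. The ERSE of Hspa5 lies between −65 and −47, inside the first exon of a longer GENCODE M21 transcript of Hspa5, and that of Creld2 between −126 and −108.
Hspa5 ERSE (chr2:34772020-34772048, + strand): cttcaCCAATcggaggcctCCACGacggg
Hspa5 UPR element core (chr2:34771913-34771959, + strand): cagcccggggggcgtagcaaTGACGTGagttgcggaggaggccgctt
Hsp90b1 distal ERSE (chr10:86705618-86705676, − strand): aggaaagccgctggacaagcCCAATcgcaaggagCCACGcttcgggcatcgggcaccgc
Hsp90b1 proximal ERSE (chr10:86705513-86705571, − strand): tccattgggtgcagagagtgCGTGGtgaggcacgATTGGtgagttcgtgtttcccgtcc
Calr ERSE (chr8:84847055-84847113, − strand): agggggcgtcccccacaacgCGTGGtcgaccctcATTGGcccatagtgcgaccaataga
Herpud1 ERSE-II (chr8:94386357-94386407, + strand): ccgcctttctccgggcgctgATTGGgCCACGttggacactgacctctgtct
Creld2 ERSE (chr15:88819500-88819558, + strand): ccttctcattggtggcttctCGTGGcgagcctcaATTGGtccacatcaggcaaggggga

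**Figure D1:**
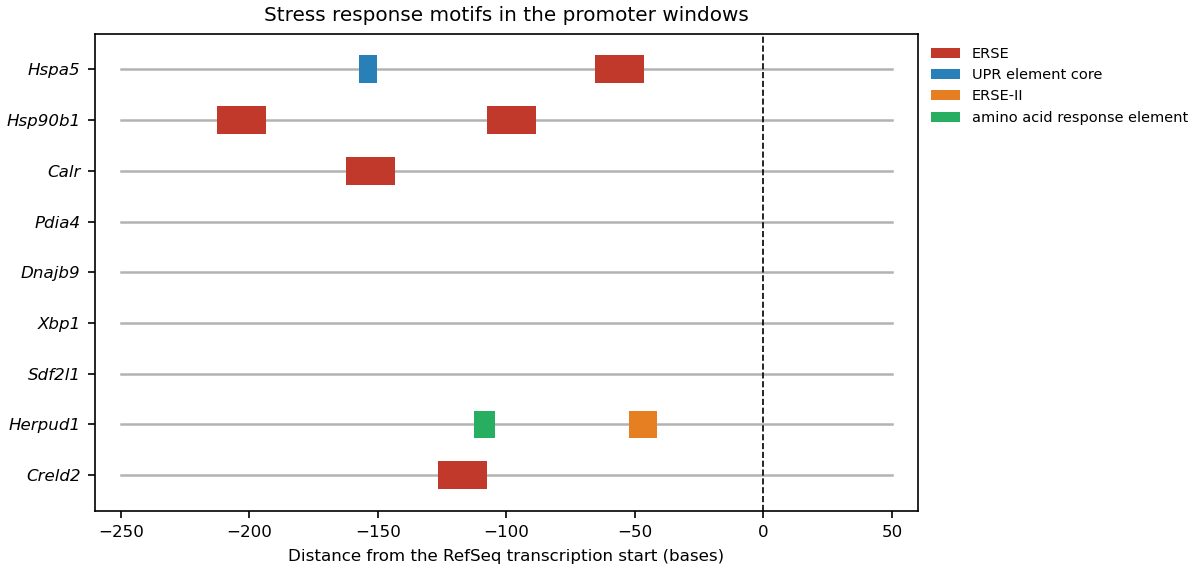
Positions of 4 stress response motifs in the promoter windows of 9 genes; the x axis is the distance from the RefSeq transcription start in bases, each gray line is 1 window and each colored block is 1 match on either strand. Hsp90b1 holds 2 ERSE, Hspa5 and Herpud1 hold 2 different motifs each, and Pdia4, Dnajb9, Xbp1 and Sdf2l1 hold none.

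Total counts ran from 8883870 to 35224669 per library. Tsc1 was checked first: its highest value in a TSCmKO library was 35.8 CPM (the count of a gene scaled to a common library total after TMM adjustment, not corrected for length) and its lowest in a CON library 51.3 CPM, so that the genotypes did not overlap. Tsc1 fell by 1.55 on the log2 scale at 9 months and by 1.99 at 3 months in TSCmKO (edgeR, adjusted p = 2.33e-09 and 2.49e-11). Summed fast-fiber markers were at 85692 CPM or more in every library, which fits the label of the tissue. Insert sizes ran from 175 to 239 nt in 3-month libraries and from 223 to 308 nt in 9-month ones, so that age and library preparation cannot be told apart. The library 9mTSCmKO replicate 1 stood apart from its group (median r with the other 4 of 0.937, against at least 0.966 for the other 39 libraries). In whole muscle, fewer cells of a type and less RNA per cell cannot be told apart.

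In TPM, a share of transcripts corrected for length, the members spanned a wide range of levels. In 9mCON, Calr was highest at 302 ± 35.4 TPM (mean ± SD, n = 5), followed by Hspa5 at 159 ± 18.0, Herpud1 at 146 ± 14.4 and Hsp90b1 at 130 ± 13.9 TPM. The ranges of Hspa5, Herpud1 and Hsp90b1 overlapped, while Calr lay above all of them. Xbp1 followed at 64.1 ± 5.25 and Dnajb9 at 42.6 ± 9.91 TPM. Hyou1 was at 16.5 ± 5.01, Pdia4 at 9.38 ± 2.06, Creld2 at 7.35 ± 1.65 and Sdf2l1 at 3.30 ± 0.378 TPM, and only Sdf2l1 in this low set lay below all of the others without overlap. The same order of means held in 9mTSCmKO. The summed TPM of the 10 genes ran from 786 to 980 in 9mCON, from 1120 to 1306 in 9mTSCmKO and, after rapamycin, from 788 to 1012. In the younger mice it ran from 846 to 1033 in CON, from 994 to 1508 in TSCmKO and, after rapamycin, from 689 to 907. Counts behind these values were lowest for Sdf2l1 (8 to 151 reads per library), followed by Creld2 (42 to 238) and Pdia4 (95 to 397), and at least 244 for every other member. Shared sequence was small: at most 1.35% of the 31-base words of a member, in Hsp90b1 with the overlapping Gm15344, occurred in another gene.

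**Figure D2:**
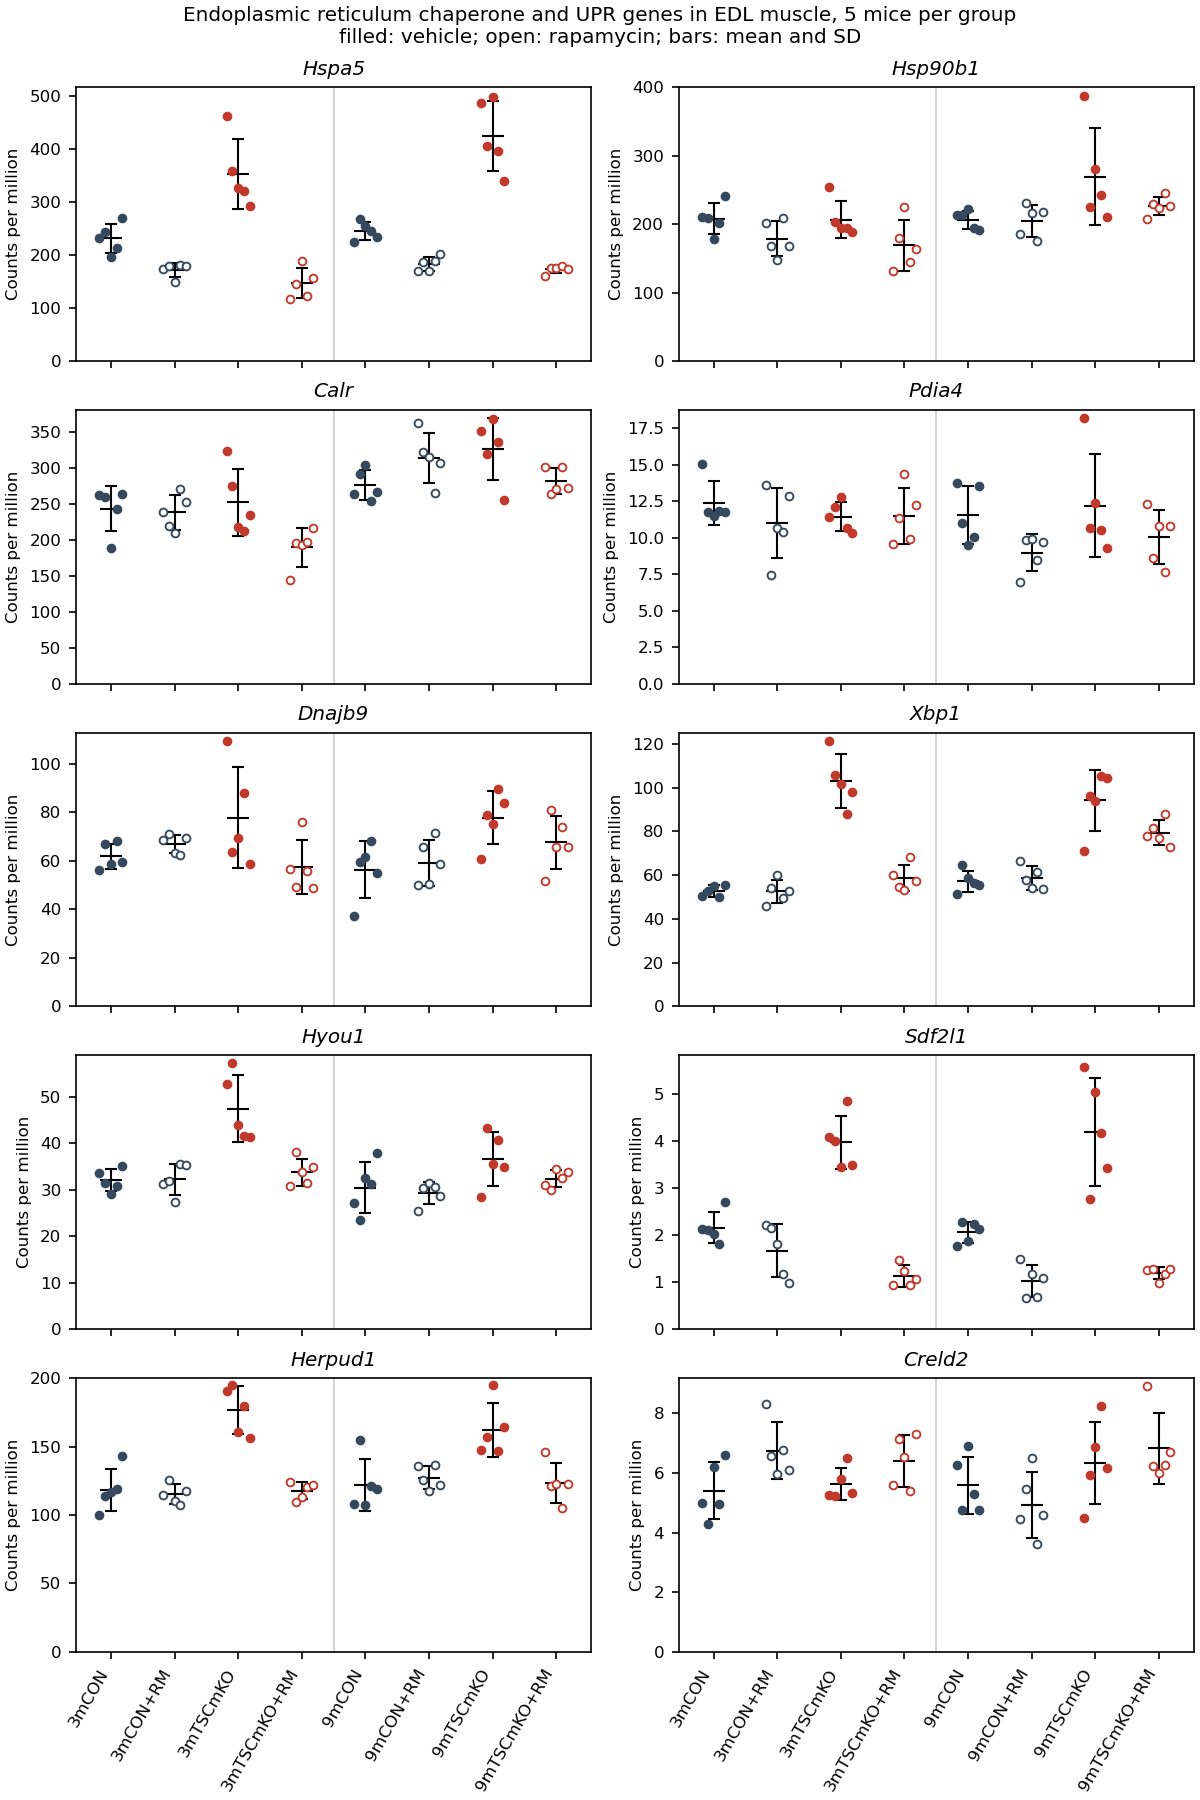
TMM-scaled CPM (y axis, from 0) of the 10 genes in each of the 40 libraries, by group (x axis); filled points are vehicle, open points rapamycin, and bars give the mean and SD of 5 mice. Hspa5 sits at 292 to 498 CPM in vehicle-treated TSCmKO muscle and at or below 270 CPM in every other library, while Pdia4 and Creld2 overlap throughout the vehicle groups.

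The first comparison asked how loss of Tsc1 in muscle fibers changed these genes. At 9 months, 6 of the 10 members were higher in TSCmKO than in CON and 0 were lower, against 37.9% of all genes called in either direction (19.1% higher). At 3 months 5 were higher and 0 lower, against 19.8% of all genes (11.4% higher). Here and below, a count of members near the share of all genes is no result about the members. Hspa5, Xbp1, Sdf2l1 and Herpud1 were called higher at both ages, Dnajb9 and Hsp90b1 at 9 months, and Hyou1 at 3 months. Without 9mTSCmKO replicate 1 the 9-month count was again 6, with Hyou1 in place of Hsp90b1. The median log2 fold change of the 10 members was 0.40 at 9 months and 0.45 at 3 months, beside −0.02 over all genes tested at each age. Since the members were chosen with earlier results of these data known, this contrast is a description only.

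Hspa5 encodes BiP, the Hsp70 chaperone of the ER and a standard readout of the UPR. Its values were 226, 268, 256, 245 and 234 CPM in 9mCON and 487, 406, 498, 396 and 340 CPM in 9mTSCmKO. Every TSCmKO library lay above every CON library. At 3 months the values were 233, 243, 197, 214 and 270 CPM in CON and 462, 359, 327, 322 and 292 CPM in TSCmKO, again with no overlap. The log2 fold change was 0.79 ± 0.12 (SE; 1.73-fold, adjusted p = 1.39e-06) in the older and 0.61 ± 0.12 (1.52-fold, adjusted p = 0.000191) in the younger mice.

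None of the other chaperone genes, Hsp90b1, Hyou1 and Calr, was called at both ages. Hsp90b1 encodes GRP94, the Hsp90 of the ER, and was at 213, 214, 222, 194 and 192 CPM in 9mCON against 387, 226, 280, 242 and 211 CPM in 9mTSCmKO. The groups overlapped, and the highest value came from replicate 1, the library that stood apart. The log2 fold change was 0.38 ± 0.14 (adjusted p = 0.0238), and without that replicate it was 0.22 (adjusted p = 0.168), which ends the call. It was also lost without 9mCON replicate 4 (0.36, adjusted p = 0.0526). At 3 months Hsp90b1 was at 178 to 242 CPM in CON and 188 to 254 CPM in TSCmKO (log2 fold change −0.01 ± 0.13).

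Hyou1 encodes GRP170, a large Hsp70 relative that releases nucleotide from BiP. At 3 months it was at 33.7, 31.5, 29.0, 30.9 and 35.2 CPM in CON and 52.8, 57.3, 44.0, 41.7 and 41.4 CPM in TSCmKO, with no overlap (log2 fold change 0.57 ± 0.11, adjusted p = 0.000261). At 9 months the ranges overlapped, 23.4 to 38.0 against 28.5 to 43.4 CPM, and the difference of 0.26 ± 0.11 did not pass the test (adjusted p = 0.0647). Without 9mTSCmKO replicate 1 it did (0.35, adjusted p = 0.0148), as it did without 9mCON replicate 5 (0.38, adjusted p = 0.0109). The lectin chaperone gene Calr did not pass it at either age, with log2 fold changes of 0.24 ± 0.12 and 0.05 ± 0.12 at 9 and 3 months (adjusted p = 0.108 and 0.810), although the 9-month change was called without 9mTSCmKO replicate 5 (0.31, adjusted p = 0.0387). The disulfide isomerase gene Pdia4 was at 9.50 to 13.8 CPM in 9mCON and 9.27 to 18.2 CPM in 9mTSCmKO, and its log2 fold changes were 0.07 ± 0.16 and −0.11 ± 0.16 at 9 and 3 months.

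Sdf2l1 and Dnajb9, whose products work with BiP, were higher in TSCmKO at 9 months. Sdf2l1 encodes an ER-resident partner of BiP and DnaJ proteins. It was at 1.77, 2.26, 1.87, 2.24 and 2.12 CPM in 9mCON and 5.57, 2.77, 5.03, 4.16 and 3.41 CPM in 9mTSCmKO. At 3 months the values were 2.13, 2.09, 2.02, 1.82 and 2.70 CPM in CON and 4.09, 3.98, 3.44, 4.83 and 3.49 CPM in TSCmKO. Neither pair of groups overlapped, and the log2 fold change of Sdf2l1 was 1.02 ± 0.21 at 9 months (2.03-fold, adjusted p = 0.000162) and 0.90 ± 0.21 at 3 months (1.86-fold, adjusted p = 0.00139). Dnajb9 encodes ERdj4, a DnaJ cochaperone that is a classic target of XBP1. It was at 37.1 to 68.2 CPM in 9mCON and 60.8 to 89.6 CPM in 9mTSCmKO, with overlap (log2 fold change 0.47 ± 0.15, adjusted p = 0.0141), and the call was lost without 9mCON replicate 1, the lowest CON library (0.35, adjusted p = 0.0623). At 3 months the difference of 0.33 ± 0.15 did not pass the test.

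Xbp1 encodes the transcription factor that IRE1 activates by cutting its mRNA. Values per gene do not tell the spliced from the unspliced form. It was at 51.3, 64.5, 58.5, 56.5 and 55.3 CPM in 9mCON and 71.1, 96.1, 94.1, 105 and 104 CPM in 9mTSCmKO. At 3 months Xbp1 was at 50.2, 52.7, 55.2, 50.1 and 55.5 CPM in CON and 121, 106, 102, 87.8 and 98.1 CPM in TSCmKO. The groups were apart at both ages. The log2 fold change was 0.72 ± 0.10 (adjusted p = 2.54e-07) in 9-month and 0.96 ± 0.10 (1.95-fold, adjusted p = 1.34e-09) in 3-month mice.

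Herpud1 encodes a membrane protein of ER-associated degradation. It was at 108, 155, 108, 121 and 119 CPM in 9mCON and 147, 157, 195, 147 and 165 CPM in 9mTSCmKO, and 1 CON library, replicate 2, reached into the range of TSCmKO. The 3-month values of 99.8, 114, 117, 119 and 143 CPM in CON and 191, 195, 161, 179 and 157 CPM in TSCmKO did not overlap. Its log2 fold change was 0.41 ± 0.10 (adjusted p = 0.00161) in the older and 0.58 ± 0.10 (adjusted p = 5.09e-05) in the younger mice. Creld2, an ER stress-inducible gene for a secreted disulfide isomerase-like protein, was at 4.75 to 6.90 CPM in 9mCON and 4.47 to 8.25 CPM in 9mTSCmKO (log2 fold change 0.18 ± 0.16, adjusted p = 0.380).

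The difference between the genotype effects at the 2 ages was tested by itself and was called for 0 members, against 4.94% of all genes. The unadjusted p was under 0.05 for 1 member, and DESeq2 also called 0. The called rises of Hsp90b1 and Dnajb9 at 9 months and of Hyou1 at 3 months are thus not shown to be age-specific. In the same test 1 of 4 slow-fiber markers was called higher, and 1 of 6 fast-fiber and 2 of 5 erythroid markers lower. When the fit was limited to the groups compared, the 9-month calls of Hsp90b1, Dnajb9 and Herpud1 were lost (adjusted p = 0.121, 0.0612 and 0.0547), which left 3 members.

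**Figure D3:**
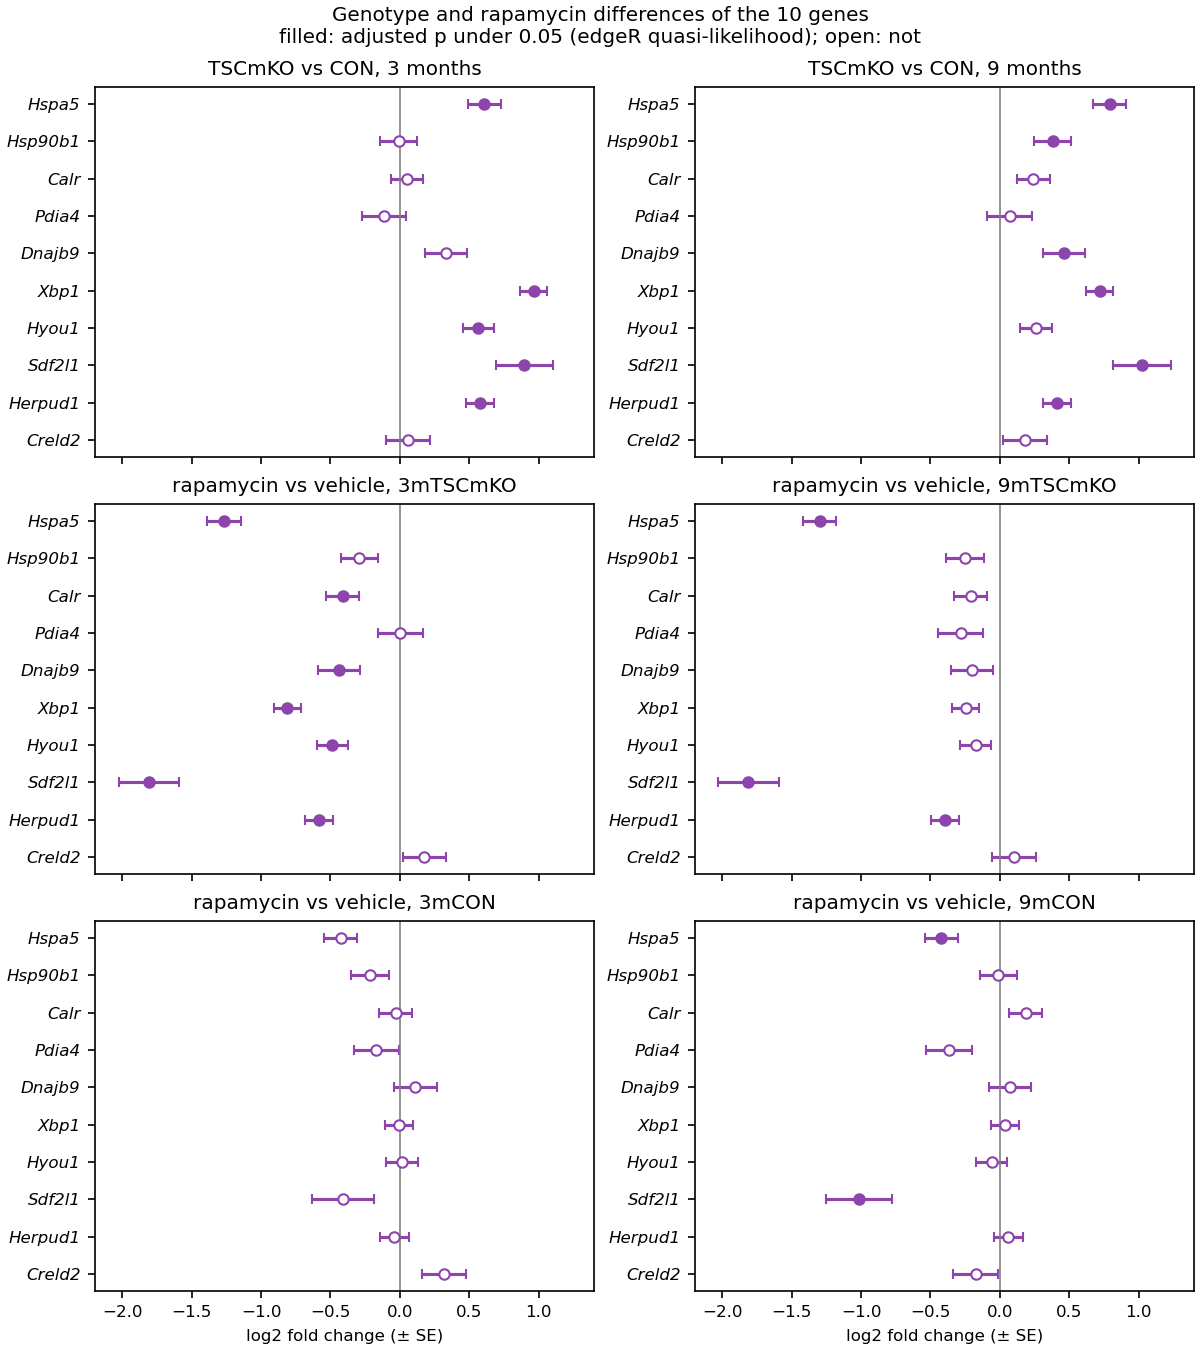
Log2 fold changes (x axis) of the 10 genes with their standard errors in 6 comparisons of 5 against 5 libraries; filled points passed the test of edgeR at an adjusted p of 0.05 and open points did not. Filled points lie right of 0 for genotype (5 at 3 months, 6 at 9 months) and left of 0 for rapamycin (7 in 3mTSCmKO, 3 in 9mTSCmKO, 2 in 9mCON and 0 in 3mCON).

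The second comparison asked what short rapamycin treatment did in TSCmKO muscle. At 9 months it lowered 3 of the 10 members and raised 0, against 32.6% of all genes called in either direction (16.8% lower). At 3 months it lowered 7 and raised 0, against 23.6% of all genes (13% lower). Hspa5, Sdf2l1 and Herpud1 fell at both ages. Xbp1, Hyou1, Dnajb9 and Calr were called lower at 3 months only, with uncalled changes of the same sign at 9 months. These comparisons share the vehicle TSCmKO libraries with those between genotypes, so that their values are not independent of the rises above.

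Hspa5 fell to 161, 175, 176, 179 and 173 CPM in the older treated TSCmKO mice, and 3mTSCmKO+RM was at 118, 146, 188, 123 and 157 CPM in 3mTSCmKO+RM. No treated library overlapped with the vehicle TSCmKO libraries, and none overlapped with the vehicle CON libraries of its age either. The change was −1.30 ± 0.12 at 9 months (to 0.407 times, adjusted p = 1.95e-10) and −1.27 ± 0.12 at 3 months (to 0.415 times, adjusted p = 2.92e-10). Sdf2l1 fell to 1.25, 1.27, 0.979, 1.17 and 1.28 CPM in 9mTSCmKO+RM, and was at 0.927, 1.47, 1.24, 0.942 and 1.07 CPM in 3mTSCmKO+RM. That was a change of −1.81 ± 0.22 at each age (to 0.285 and 0.286 times, adjusted p = 6.28e-08 and 4.54e-08), the largest among the members.

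Herpud1 overlapped with vehicle controls of its age after treatment. It was at 146, 121, 123, 105 and 123 CPM in 9mTSCmKO+RM and at 124, 110, 113, 120 and 122 CPM in 3mTSCmKO+RM. Its changes were −0.39 ± 0.10 and −0.58 ± 0.10 (adjusted p = 0.00303 and 4.25e-05). Xbp1 differed between the ages: it was at 60.1, 54.6, 53.2, 68.5 and 57.2 CPM in 3mTSCmKO+RM, below every vehicle TSCmKO library, and at 78.1, 81.4, 77.1, 87.7 and 73.0 CPM in 9mTSCmKO+RM, within the range of the vehicle libraries. The change of Xbp1 was −0.81 ± 0.10 (adjusted p = 7.21e-08) in the younger mice and −0.25 ± 0.10 in the older ones (adjusted p = 0.0515, and 0.0373 to 0.189 over the alternatives that kept all libraries or dropped the one without an insert size). Without 9mTSCmKO replicate 1, the lowest vehicle library for Xbp1, it was −0.34 (adjusted p = 0.00573), which adds a call, and without 9mTSCmKO+RM replicate 4 it was −0.28 (adjusted p = 0.0368).

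Of the other chaperone genes, Hyou1 fell in 3mTSCmKO+RM to 30.7 to 38.1 CPM, without overlap (−0.49 ± 0.11, adjusted p = 0.00119), a call that was lost on log2(TPM + 0.1) (adjusted p = 0.0505). Calr fell there to 145 to 217 CPM from 212 to 324 CPM (−0.41 ± 0.12, adjusted p = 0.00901), and without 3mTSCmKO replicate 1 its change was −0.29 (adjusted p = 0.0752). Dnajb9 fell from 58.5 to 109 CPM to 48.7 to 76.0 CPM (−0.44 ± 0.15, adjusted p = 0.0293), a call that 6 of the 10 libraries could each end when left out. At 9 months Hyou1, Dnajb9 and Calr changed by −0.17, −0.20 and −0.21 (adjusted p = 0.244, 0.322 and 0.172). Calr was called there without 9mTSCmKO replicate 5 (adjusted p = 0.0477). Hsp90b1, Pdia4 and Creld2 were called at neither age, with log2 fold changes from −0.29 to 0.18. Without 3mTSCmKO+RM replicate 3 Hsp90b1 was called lower at 3 months (adjusted p = 0.0229). Without 9mTSCmKO replicate 1 the 9-month changes of Hsp90b1 and Pdia4 went from −0.25 to −0.09 and from −0.28 to −0.10.

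The test of the difference between the ages was called for 1 of the 10 members, Xbp1, against 1.91% of all genes. The difference was 0.56 ± 0.14 (adjusted p = 0.0252), since Xbp1 fell less at 9 months. It was lost without 1 of 4 libraries, 3mTSCmKO replicate 1, 3mTSCmKO+RM replicate 2 or 9mTSCmKO replicates 1 and 3, each left out alone, with adjusted p up to 0.0748. It was also lost without the filter, on log2(TPM + 0.1) and with only the groups compared in the fit (adjusted p up to 0.087). For Hspa5 the same difference was −0.03 ± 0.17 and for Sdf2l1 −0.0037 ± 0.34. In the same test 1 of 5 macrophage and leukocyte and 1 of 4 tendon markers were called lower, and their part was not tested.

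The third comparison gives the effect of rapamycin in controls. At 9 months it lowered 2 of the 10 members and raised 0, against 11.8% of all genes (6.82% lower), and at 3 months 0 members were called, against 0.679% of all genes. Hspa5 was at 170, 188, 170, 188 and 202 CPM in 9mCON+RM, below all vehicle 9mCON libraries (−0.42 ± 0.12, adjusted p = 0.0158). Sdf2l1 was at 1.49, 0.668, 1.16, 0.688 and 1.08 CPM there, also without overlap (−1.01 ± 0.24, adjusted p = 0.00360). Both calls were lost when the fit held these groups alone (adjusted p = 0.0597 and 0.0507).

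In 3mCON+RM the values of Hspa5 were 173, 178, 150, 181 and 179 CPM, again below every vehicle 3mCON library. The change was of like size to that at 9 months, −0.43 ± 0.12, but did not pass the test over all genes (adjusted p = 0.0848). It was the single member with an unadjusted p under 0.05, and DESeq2 and the fit of these groups alone each called 1 member, Hspa5, lower. Sdf2l1 was at 2.21, 2.15, 1.80, 1.17 and 0.986 CPM in 3mCON+RM and overlapped with 3mCON (−0.41 ± 0.22, adjusted p = 0.623). In 9mCON+RM, 6 of 6 fibroblast markers were called lower, from a sum of 1007 to 2050 CPM in 9mCON to 165 to 772 CPM, and 4 of 5 macrophage and leukocyte markers, from 36.8 to 100.04 CPM to 9.85 to 30.6 CPM. Of 4 tendon markers 3 were lower. Their part in the falls of Hspa5 and Sdf2l1 was not tested. In 3mCON+RM 0 of the markers of these lists were called.

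Whether rapamycin acted differently in the 2 genotypes was tested as an interaction. At 9 months 1 of the 10 members, Hspa5, fell further in TSCmKO than in CON, by 0.88 ± 0.17 on the log2 scale (adjusted p = 0.00157), against 4.87% of all genes called. At 3 months 4 members did, against 3.45% of all genes. They were Hspa5 (−0.84 ± 0.17, adjusted p = 0.00227), Xbp1 (−0.80 ± 0.14, adjusted p = 0.000429), Sdf2l1 (−1.40 ± 0.31, adjusted p = 0.00622) and Herpud1 (−0.54 ± 0.15, adjusted p = 0.0255). The call of Herpud1 was lost without any 1 of 6 libraries, 3mCON replicates 1 and 3, 3mCON+RM replicate 2, 3mTSCmKO replicates 1 and 2 and 3mTSCmKO+RM replicate 2 (adjusted p up to 0.0672). Sdf2l1 at 9 months had an interaction of −0.80 ± 0.33 (adjusted p = 0.147) and Herpud1 one of −0.46 ± 0.15 (adjusted p = 0.0576). Herpud1 joined the calls at 9 months, which made 2, without any 1 of 9mCON replicate 2, 9mTSCmKO replicates 1 and 4 and 9mTSCmKO+RM replicate 1. In the interaction at 3 months 1 of 4 tendon markers was called higher, and its part was not tested.

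Treated TSCmKO muscle was then set against vehicle controls of its age. The 2 group means do not use the vehicle TSCmKO libraries, which enter through the filter, scaling and spread shared by all 40 libraries. At 9 months 1 member was higher and 2 were lower, against 31.9% of all genes called. Hspa5 lay below 9mCON (−0.51 ± 0.12, 0.704 times, adjusted p = 0.00103), as did Sdf2l1 (−0.79 ± 0.23, adjusted p = 0.00750), while Xbp1 stayed higher (0.47 ± 0.10, 1.39-fold, adjusted p = 0.000279). None of these groups overlapped. In the same comparison 4 of 4 slow-fiber markers were higher, 5 of 6 fibroblast, 3 of 5 macrophage and leukocyte, 3 of 4 tendon, 1 of 5 erythroid and 1 of 4 adipocyte markers were lower, and fast-fiber markers had 1 call in each direction. Their part was not tested. At 3 months 0 members were higher and 3 lower, against 16.7% of all genes (7.71% lower): Hspa5 (−0.66 ± 0.12, adjusted p = 8.91e-05), Sdf2l1 (−0.91 ± 0.22, adjusted p = 0.00304) and Calr (−0.36 ± 0.12, adjusted p = 0.0301). The call of Calr was lost without any 1 of 5 libraries, 3mCON replicates 1, 2, 4 and 5 and 3mTSCmKO+RM replicate 1, with adjusted p up to 0.118. In this 3-month comparison 1 of 5 macrophage and leukocyte and 1 of 4 tendon markers were higher, and fast-fiber markers had 1 call in each direction. The part of these markers was not tested.

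With both genotypes on rapamycin, 2 of the 10 members were higher in TSCmKO at 9 months and 0 were lower, against 20.6% of all genes called in either direction (11.3% higher). Xbp1 was at 53.6 to 66.7 CPM in 9mCON+RM and 73.0 to 87.7 CPM in 9mTSCmKO+RM, without overlap (0.44 ± 0.10, adjusted p = 0.00110). Creld2 was at 4.46, 5.45, 6.51, 3.61 and 4.59 CPM in 9mCON+RM and 8.92, 6.22, 5.98, 6.27 and 6.71 CPM in 9mTSCmKO+RM (0.46 ± 0.16, adjusted p = 0.0371), its single call in any comparison. It was lost without any 1 of 5 libraries, 9mCON+RM replicates 1, 4 and 5 and 9mTSCmKO+RM replicates 1 and 5, and 1 member was then left. This call of Creld2 was also lost without the filter, with insert size as a term and with only the groups compared in the fit (adjusted p up to 0.097). Hspa5 differed by −0.09 ± 0.12 between the treated genotypes. Between these groups 3 of 4 slow-fiber and 1 of 5 macrophage and leukocyte markers were higher, and 2 of 6 fast-fiber and 1 of 4 endothelial markers were lower, and their part was not tested. At 3 months 0 members were called, against 10% of all genes, with an unadjusted p under 0.05 for 2 members and 0 calls by DESeq2.

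The order of the group means of Hspa5 was 9mTSCmKO, 3mTSCmKO, 9mCON, 3mCON, 9mCON+RM, 9mTSCmKO+RM, 3mCON+RM and 3mTSCmKO+RM. Neighbors in this order overlapped except 3mTSCmKO and 9mCON. For Xbp1 the first 3 were 3mTSCmKO, 9mTSCmKO and 9mTSCmKO+RM, and the gap lay below 9mTSCmKO+RM, so that this treated group stood with the untreated TSCmKO groups. For Sdf2l1 the gap lay below the pair of vehicle TSCmKO groups. For Herpud1 these groups had the highest means too, but 9mCON reached into their range.

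Age was compared last, and here insert size changed with the groups. In CON 0 members differed between 3 and 9 months, against 1.02% of all genes, with 0 at an unadjusted p under 0.05 and 0 by DESeq2. In TSCmKO 2 were higher and 1 was lower at 9 months, against 37.4% of all genes. Calr (0.37 ± 0.12, adjusted p = 0.0135) and Hsp90b1 (0.38 ± 0.13, adjusted p = 0.0243) were higher, and Hyou1 was lower (−0.37 ± 0.11, adjusted p = 0.00870). With insert size as a term, a fit that drops 9mTSCmKO+RM replicate 5 for want of that value, 0 were called, and the changes of Calr and Hsp90b1 were 0.12 and 0.16, while that of Hyou1 was −0.39 (adjusted p = 0.0943). Without 9mTSCmKO replicate 1 the count was 1. Markers of other cells also differed between the ages in TSCmKO: 4 of 6 fibroblast, 4 of 4 adipocyte, 4 of 5 erythroid, 3 of 3 B and plasma cell, 3 of 4 endothelial, 3 of 4 tendon and 2 of 6 fast-fiber markers were lower at 9 months, and 3 of 4 slow-fiber markers and the remaining tendon marker were higher. Of 4 Schwann cell markers 1 was higher, and macrophage and leukocyte markers had 1 call in each direction. Their part in the age differences was not tested.

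Other UPR genes were read from 5 lists written for this work with earlier results of these data known. Over all genes tested, 19.1% were higher and 18.9% lower in TSCmKO at 9 months (11.4% and 8.32% at 3 months), and under rapamycin 15.8% rose and 16.8% fell in 9mTSCmKO (10.6% and 13% in 3mTSCmKO). The list counts are to be read beside these shares, and those near them are no result about a list. The 3 sensor genes passed the test in neither comparison of vehicle-treated genotypes. Ern1 had a median of 21.8 CPM in 9mCON and 17.8 CPM in 9mTSCmKO, but its fitted log2 fold change was −0.07 ± 0.18 (adjusted p = 0.782). Eif2ak3 was at 7.62 ± 0.854 and 7.02 ± 1.79 CPM in these groups. Atf6 had log2 fold changes of 0.24 ± 0.13 and 0.23 ± 0.13 at 9 and 3 months (adjusted p = 0.143 and 0.207). Of 9 sensor and relay genes 2 were higher and 2 lower in TSCmKO at 9 months, among them Atf6b (0.64), a relative of Atf6, and Creb3 (0.52), against Creb3l1 (−1.24) and Mbtps1 (−0.47), the protease that cuts ATF6. Under rapamycin in 9mTSCmKO 2 rose, Mbtps2 (0.39) and Ern1 (0.48), and 3 fell, with Creb3 (−0.40) and Atf6b (−0.44) at the lowest p. In 3mTSCmKO Ern1 rose by 0.48 and Atf6 fell by 0.35 under rapamycin. In 9mCON and 3mCON the change of Ern1 under rapamycin was 0.52 and 0.18 (adjusted p = 0.0537 and 0.905). Its interaction of rapamycin with genotype was −0.05 at 9 months and 0.30 at 3 months (adjusted p = 0.942 and 0.665). The rise of Ern1 is thus not shown to be particular to TSCmKO.

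The list of ATF4 and CHOP genes stood out by size. At 9 months 7 of its 10 genes were higher in TSCmKO and 1 was lower, with a median log2 fold change of 1.41. Ddit3, which encodes CHOP, was at 12.8 ± 3.17 CPM in 9mCON and 36.2 ± 11.3 CPM in 9mTSCmKO (1.49 ± 0.18, adjusted p = 1.08e-08), and Sesn2, a stress-induced regulator of mTORC1, rose by 1.67. Chac1, which breaks down glutathione, was lower (−1.12). Atf4 itself was at 183 ± 47.0 and 219 ± 38.6 CPM and did not pass the test (0.26 ± 0.14, adjusted p = 0.131). Rapamycin lowered 7 of the 10 in 9mTSCmKO and raised 0, with Asns, asparagine synthetase, at −2.43 and Ddit3 at −1.22. In 3mTSCmKO, 5 were higher than in CON and 0 lower, and rapamycin lowered 7 and raised 0 there. Rapamycin also lowered Ddit3 in 9mCON (−0.57, adjusted p = 0.0322), while in 3mCON its change was −0.61 (adjusted p = 0.146). Treated TSCmKO against vehicle CON gave 0.28 at 9 months and −0.0039 at 3 months for Ddit3 (adjusted p = 0.248 and 0.994). Ddit3 was higher in TSCmKO with both genotypes on rapamycin (0.85 at 9 months and 0.60 at 3 months, adjusted p = 0.000533 and 0.0288).

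The lists of ER enzymes and transport held calls in both directions. Of 20 other ER folding genes 6 were higher and 3 lower in 9mTSCmKO, with a median of 0.17, beside 37.9% of all genes called. Ero1l, an oxidase that feeds disulfide bonds to protein disulfide isomerases, rose by 0.78 and Pdia6 by 0.47, while Sil1, a nucleotide exchange factor of BiP, and Cdnf fell by 0.67 and 0.55. Under rapamycin 5 rose and 5 fell: Manf, a secreted ER stress-induced factor, was at −1.43 and Pdia6 at −0.59, while Sil1 (0.75) and the disulfide isomerase gene P4hb (0.65) rose. Of 17 tested genes of ER-associated degradation, Derl3 of the 18 listed having failed the filter, 7 were higher and 1 lower in 9mTSCmKO. Vcp, the ATPase that extracts substrates, rose by 0.68 and its cofactor Ufd1 by 0.45. Rapamycin in 9mTSCmKO raised 4 of them, with Erlec1, an ER lectin, at 0.48, and lowered 5, with Selenos at −0.64 and Ufd1 at −0.52.

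Of 18 genes of ER entry and exit 5 were higher and 2 lower in 9mTSCmKO. Sec23b of the COPII coat rose by 0.93 and Sec63 of the translocation channel by 0.86, while Ssr4 and Sec24d were at −0.51 and −0.54. Rapamycin lowered 5 of the 18 and raised 0, beside 32.6% of all genes called, with Sec23b at −1.25 and Sec61g, a subunit of the channel, at −0.85. In 3mTSCmKO the genotype counts were 5 higher and 1 lower for folding, 4 and 0 for degradation, 4 and 0 for entry and exit, and 2 and 0 for the sensors. In 3mCON+RM 1 gene of all 5 lists was called, lower, in the degradation list.

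**Figure D4:**
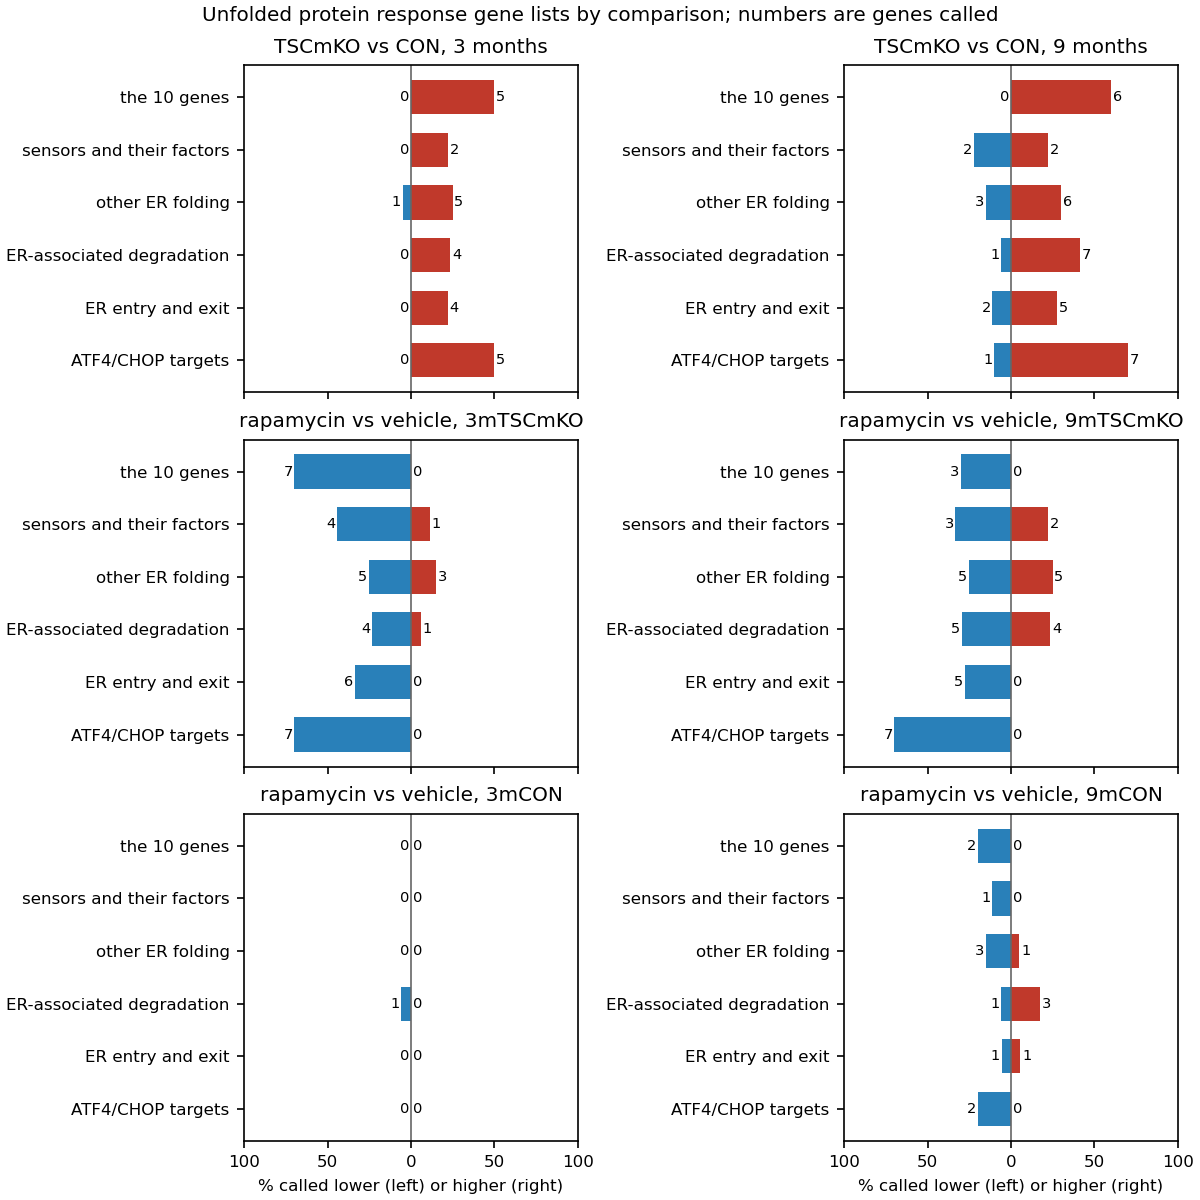
Share of the tested genes of each UPR list called lower (bars to the left) or higher (bars to the right) in 6 comparisons; the x axis is in percent, numbers beside the bars are genes called, and lists hold 9 to 20 tested genes. ATF4 and CHOP genes reach 7 of 10 higher in 9mTSCmKO and 7 of 10 lower under rapamycin at both ages, while folding genes are called in both directions.

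Other cell types moved with some groups. In 9mTSCmKO 4 of 6 fibroblast markers were lower than in 9mCON (sums of 336 to 1181 against 1007 to 2050 CPM), 4 of 4 slow-fiber markers were higher (283 to 927 against 62.1 to 101 CPM) and 3 of 6 fast-fiber markers were lower (85692 to 100806 against 132416 to 141998 CPM). Also lower in 9mTSCmKO were 3 of 4 tendon, 2 of 4 adipocyte, 2 of 4 endothelial and 1 of 4 Schwann cell markers, while 1 of 5 macrophage and leukocyte markers was higher. At 3 months 1 of 4 tendon markers was lower and 0 fibroblast, slow-fiber and fast-fiber markers were called between genotypes, with slow-fiber sums of 45.7 to 413 CPM in TSCmKO and 58.2 to 241 CPM in CON. B and plasma cells use Xbp1 heavily. Of their 5 markers 3 were tested and 2 were called higher in 3mTSCmKO, where the summed level was 1.94 to 19.8 CPM against 1.55 to 3.72 CPM in 3mCON, and the highest library was replicate 3. The plasma cell markers Mzb1 and Jchain stayed at or below 0.352 and 0.768 CPM in 3mTSCmKO. Without 3mTSCmKO replicate 3, 5 members were called between genotypes at 3 months. In 3mTSCmKO+RM 2 of 6 fibroblast markers were higher than in 3mTSCmKO, as were 1 of 4 tendon and 1 of 5 macrophage and leukocyte markers, and 2 of 3 B and plasma cell markers were lower. Fast-fiber markers moved with rapamycin in TSCmKO, 3 of 6 higher and 1 lower at each age. Their sum went from 85692 to 100806 CPM in 9mTSCmKO to 125444 to 152359 CPM in 9mTSCmKO+RM, without overlap, and from 87890 to 150058 CPM to 132857 to 165489 CPM in the younger mice, with overlap. Of 4 slow-fiber markers 1 was lower in 9mTSCmKO+RM (sums of 236 to 597 CPM), and 0 of 6 fibroblast markers were called there. Endothelial markers had 1 call in each direction in 9mTSCmKO+RM. The part of these cell types in the results was not tested.

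**Figure D5:**
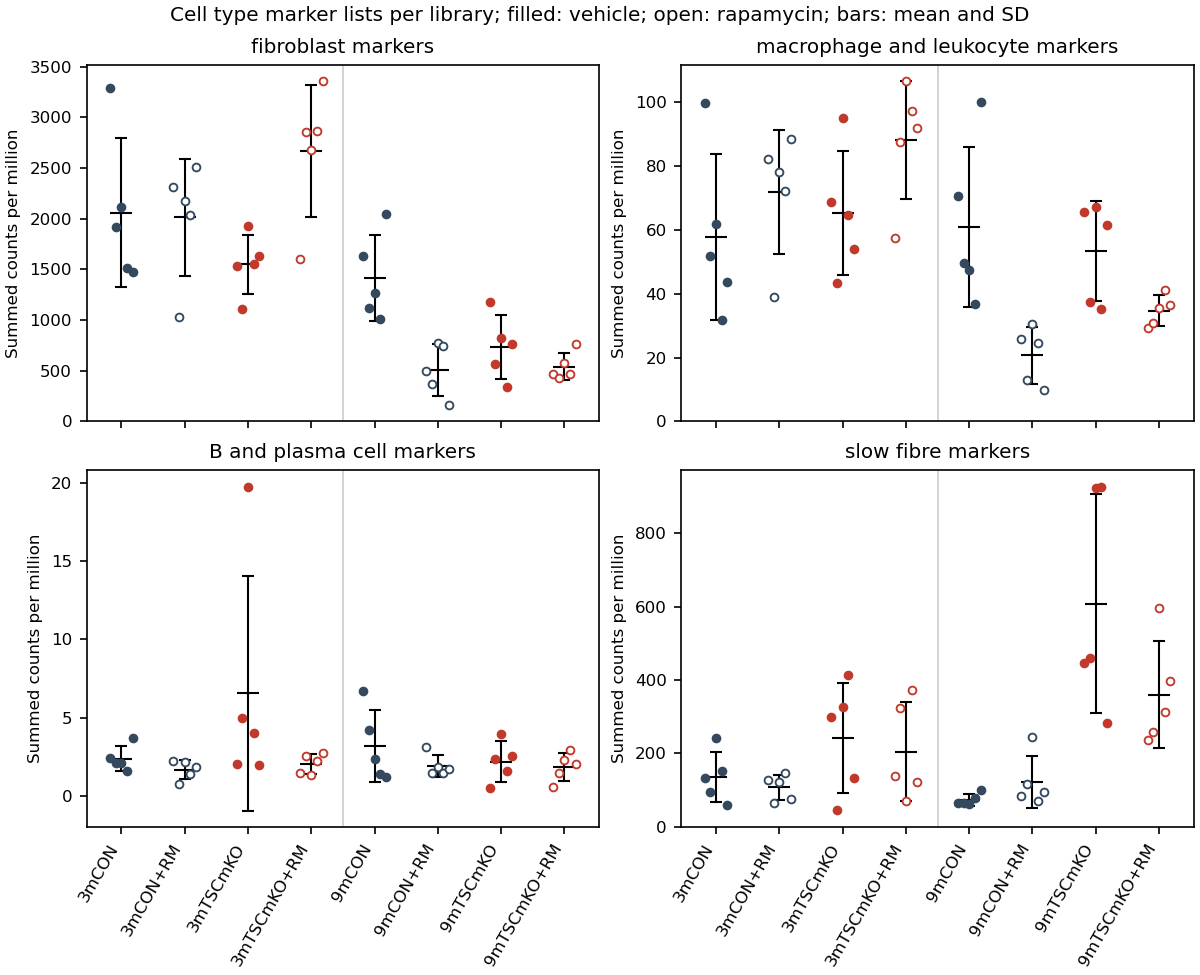
Summed CPM (y axis) of 4 marker lists in each of the 40 libraries by group (x axis); filled points are vehicle, open points rapamycin, and bars give the mean and SD of 5 mice. Fibroblast and macrophage sums are low in 9mCON+RM, slow-fiber sums are high in 9mTSCmKO, and 1 library of 3mTSCmKO reaches 19.8 CPM for B and plasma cell markers.

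The members did not move as 1 block. Over the 40 libraries the 45 pairs of members had Pearson correlations of log2 CPM from −0.16 to 0.86 with a median of 0.29, and after the group means were removed the median was 0.08. The highest pair was Hspa5 with Sdf2l1 (0.86, and 0.25 within groups), while Hspa5 with Hsp90b1 was at 0.66 and at 0.79 within groups. The points share libraries and groups. The genes outside the set with the pattern most like that of Hspa5 over the 40 libraries were Mis12 (r = 0.93), Cdc42 (0.90), Cpsf2 (0.90), Pdia6 (0.89) and Manf (0.89). The gene nearest to each other member was Nop58 for Hsp90b1 (0.85), Wdr70 for Calr (0.78), Psme4 for Hyou1 (0.85), Stambpl1 for Pdia4 (0.72), Trnt1 for Dnajb9 (0.78), Glrx for Sdf2l1 (0.87), Ctxn3 for Xbp1 (0.91), Cdip1 for Herpud1 (0.87) and Slc25a45 for Creld2 (0.63). These names depended on the setting: on log2(TPM + 1) each of the 10 members had another nearest gene, and so it was in the 20 vehicle libraries except for Trnt1 with Dnajb9. Of the 6 comparisons of genotype and of rapamycin within a genotype, the genes with an ERSE were called in 5 (Hspa5), 1 (Hsp90b1), 1 (Calr) and 0 (Creld2). Herpud1, with an ERSE-II, was called in 4. The genes without a match in the window searched were called in 5 (Sdf2l1), 3 (Xbp1), 2 (Dnajb9) and 0 (Pdia4).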

How the data were processed

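Poly(A) RNA of 40 EDL muscles was sequenced as directional single-end reads of 50 bases. The authors trimmed reads with Cutadapt 1.9.1 and quantified them with kallisto 0.43.1 on mouse GRCm38 transcripts (Ensembl release 92), and deposited estimated counts and TPM values summed per gene. Estimated counts were rounded here. Groups were taken from the labels, which name 5 mice per group, and 0 value columns were left unassigned.

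Genes with at least 1 CPM in at least 5 libraries were kept (13543 of 22844), scaled by TMM and fitted in edgeR 4.0.16 (R 4.3.3) with 1 mean for each of the 8 groups and the quasi-likelihood test, 2-sided. The Benjamini-Hochberg adjusted p, over all genes tested, was called at 0.05 in each of 16 comparisons. SE is the log2 fold change divided by the root of F. Total counts of 8883870 to 35224669 per library limit precision most for Sdf2l1, and the counts cover counting error only where no replicate spread is given.

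The members, the UPR and marker lists and the rule for named genes were chosen with earlier results of these data known. Named were all members, Tsc1, Ern1, Eif2ak3, Atf6, Atf4 and Ddit3. In each UPR list, the 2 genes of lowest adjusted p in each direction were also named, for genotype and for rapamycin in TSCmKO at 9 months. Of these, 1 gene is not reported here. Genes of like pattern were the 5 nearest to Hspa5 and the 1 nearest to each other member. Promoter windows came from RefSeq. Alternatives were RLE and upper-quartile scaling, no filter, DESeq2 1.42.0, limma 3.58.1 on log2(TPM + 1) and log2(TPM + 0.1), only the groups compared, insert size as a term, a replicate block and leaving out each library.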

Additional observations from a re-analysis of the deposited data

Results flagged for a closer look

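Of 80 sets of 5 libraries (10 genes in 8 groups), 7 had a highest or lowest library farther from the rest than Dixon's limit, where chance gives about 1 in 20, or 4. Hspa5 was at 150 CPM in 3mCON+RM replicate 3 (nearest 173 CPM), and Hsp90b1 at 254 CPM in 3mTSCmKO replicate 1 (nearest 202 CPM). Calr was at 189 CPM in 3mCON replicate 3 (nearest 243 CPM), and Pdia4 at 15.1 CPM in 3mCON replicate 1 (nearest 11.8 CPM). Dnajb9 was at 76 CPM in 3mTSCmKO+RM replicate 3 (nearest 56.5 CPM). Herpud1 was at 155 CPM in 9mCON replicate 2 (nearest 121 CPM), and Creld2 at 8.92 CPM in 9mTSCmKO+RM replicate 1 (nearest 6.71 CPM).

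In 6 cases the effect of rapamycin itself differed between groups by edgeR's test of the interaction. Between genotypes at 9 months, Hspa5 differed by −0.876 on the log2 scale (adjusted p = 0.00157). Between genotypes at 3 months, Hspa5 differed by −0.842, Xbp1 by −0.803, Sdf2l1 by −1.4 and Herpud1 by −0.544 (adjusted p = 0.00227, 0.000429, 0.00622 and 0.0255). Between the ages in TSCmKO, Xbp1 differed by 0.564 (adjusted p = 0.0252).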

How the results depend on the processing

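No member changed direction past the threshold under any alternative. With only the groups compared in the fit, the number of members called was 3 in place of 6 between genotypes at 9 months, 0 in place of 2 for rapamycin in 9mCON, 1 in place of 0 for rapamycin in 3mCON, 1 in place of 2 between treated genotypes at 9 months, 0 in place of 3 for age in TSCmKO and 0 in place of 1 for rapamycin by age. DESeq2 called 1 in place of 0 for rapamycin in 3mCON and 2 in place of 1 for rapamycin by genotype at 9 months. Without the filter, 1 in place of 2 was called between treated genotypes at 9 months and 0 in place of 1 for rapamycin by age. With insert size as a term these were 1 between treated genotypes at 9 months and 0 for age in TSCmKO. On log2(TPM + 1) and log2(TPM + 0.1) 1 was called for age in TSCmKO, and on the latter 0 for rapamycin by age. Counts also moved by up to 1.5 times: rapamycin in 3mTSCmKO gave 6 on log2(TPM + 1) and with only the groups compared and 5 on log2(TPM + 0.1) in place of 7, and rapamycin in 9mTSCmKO gave 4 in place of 3 with RLE, upper-quartile scaling and DESeq2. Treated TSCmKO against vehicle CON at 3 months gave 2 in place of 3 on both TPM scales and without the filter. Age in TSCmKO gave 4 with upper-quartile scaling and DESeq2 and 2 without the filter, and rapamycin by genotype at 3 months gave 3 without the filter and 5, in place of 4, with only the groups compared. The cause of these changes was not tested.

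Leaving out 1 library at a time gave 5 to 7 members between genotypes at 9 months and 5 to 5 at 3 months, and for rapamycin 3 to 4 in 9mTSCmKO, 5 to 8 in 3mTSCmKO, 2 to 2 in 9mCON and 0 to 0 in 3mCON. It gave 1 to 2 between treated genotypes at 9 months, 3 to 3 and 2 to 4 for treated TSCmKO against vehicle CON at 9 and 3 months, 1 to 4 for age in TSCmKO, 1 to 2 and 3 to 4 for rapamycin by genotype at 9 and 3 months and 0 to 1 for rapamycin by age. The replicate numbers are shared between groups, and correlations of the deviations of same-numbered libraries ran from −0.363 to 0.412. They were over 0.1 in at most 3 of the 5 pairs of a comparison, reached between the treated genotypes at each age, so that the numbers were not taken to pair the mice. With the replicate block 160 of 160 member results kept their call. Depth limits Sdf2l1 most, with 8 to 151 reads per library.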
